A study of Homo sapiens with 15 samples.

Results

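The genes described here are 43 genes of the interferon response and of the sensing of foreign nucleic acid, out of 14884 genes measured on the arrays. They were chosen by symbol from the platform's table of probe sets and genes, and the rule used no measured value: the IFIT, IFITM, other IFI, OAS, MX and ISG genes, the interferon regulatory factors (IRF), the STAT factors, the Toll-like receptors (TLR), and the RNA sensors and dsRNA-binding enzymes RIGI, IFIH1, DHX58 and EIF2AK2. The rule was set with earlier results of these data known. Each of the 43 had 1 named probe set. ADAR, MX1 and OAS1 are not among the 43 and are not analysed here. The samples were HEK293T cells, an embryonic kidney line of human origin that makes the SV40 large T antigen, in 5 groups of 3 arrays: cells given a pool of 4 siRNAs against LOC550643, which encodes the small P-body protein NoBody, cells given siRNA against the mRNA decapping enzyme Dcp2, against the scavenger decapping enzyme DcpS or against the glycolytic enzyme GAPDH, and cells given a non-silencing siRNA that pairs with no human gene. The study set Dcp2 siRNA beside LOC550643 siRNA as a related depletion, and DcpS and GAPDH siRNA as unrelated ones, to ask how specific the response to LOC550643 siRNA was. All 5 groups received their siRNA with Dharmafect 1, and 48 hours later all received the transcription inhibitor actinomycin D (1 ug/mL), 4 hours before harvest. A signal thus reflects the transcripts left after that block, and a change in synthesis cannot be told apart from a change in decay. Cells without siRNA are not among the groups, so each comparison below is between siRNAs, and a response that all siRNAs share cannot be seen in it. The labels do not tell separate cultures from repeat measurements of 1 culture, so a p-value here reflects the spread among the 3 arrays of each group, and that spread may be technical. In such bulk RNA, fewer cells of a type and less RNA per cell cannot be told apart.

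Small interfering RNAs are short RNA duplexes, and vertebrate cells have receptors for foreign RNA. These receptors differ in the RNA they detect: RIG-I (gene RIGI) RNA with a triphosphate end, MDA5 (IFIH1) long dsRNA, and TLR3 dsRNA in endosomes. All of them act through the factors IRF3 and IRF7 to switch on interferon genes, while the kinase PKR (EIF2AK2) binds dsRNA and slows translation. Secreted interferon then acts through its receptors and JAK kinases to raise interferon-stimulated genes such as the IFIT, OAS, MX, IFITM and ISG15 genes, whose products hinder viral replication. Many of these genes carry the interferon-stimulated response element in their promoters, a site through which interferon raises transcription. HEK293 cells are widely used as hosts for introduced Toll-like receptors because they make little of most of their own.

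The promoters of IFITM1, EIF2AK2 and IFIT5, members that differed between siRNAs, are shown first, with those of IFITM3, the neighbour of IFITM1, and of ISG15, a classical interferon-stimulated gene, for comparison. Promoter windows reach from 250 bases before to 50 bases after the annotated start and are those of RefSeq on GRCh38.p14. They are given 5' to 3' on the strand of the gene, and capitals mark matches to the core of the response element, GAAA, any 2 bases and GAAA, or its reverse complement, TTTC, any 2 bases and TTTC.
IFITM1, chr11:313790-314089, plus strand: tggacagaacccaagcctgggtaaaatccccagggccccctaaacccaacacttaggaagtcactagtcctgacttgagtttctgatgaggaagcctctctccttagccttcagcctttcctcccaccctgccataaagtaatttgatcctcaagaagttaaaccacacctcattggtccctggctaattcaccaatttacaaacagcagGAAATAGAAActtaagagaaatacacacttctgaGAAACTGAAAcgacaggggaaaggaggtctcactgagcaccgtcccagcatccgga
IFITM3, chr11:320811-321110, minus strand: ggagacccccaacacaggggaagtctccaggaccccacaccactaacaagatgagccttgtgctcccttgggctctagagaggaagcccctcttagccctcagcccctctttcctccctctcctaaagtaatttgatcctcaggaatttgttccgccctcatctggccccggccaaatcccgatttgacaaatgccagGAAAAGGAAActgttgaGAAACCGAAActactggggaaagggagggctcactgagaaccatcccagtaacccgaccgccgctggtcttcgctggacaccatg
EIF2AK2, chr2:37156931-37157230, minus strand: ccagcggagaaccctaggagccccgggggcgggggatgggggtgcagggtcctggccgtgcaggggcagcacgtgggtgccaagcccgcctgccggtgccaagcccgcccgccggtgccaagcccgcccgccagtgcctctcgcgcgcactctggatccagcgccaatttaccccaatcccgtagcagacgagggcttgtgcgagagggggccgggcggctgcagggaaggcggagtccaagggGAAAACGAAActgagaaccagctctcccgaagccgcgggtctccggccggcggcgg
IFIT5, chr10:89414318-89414617, plus strand: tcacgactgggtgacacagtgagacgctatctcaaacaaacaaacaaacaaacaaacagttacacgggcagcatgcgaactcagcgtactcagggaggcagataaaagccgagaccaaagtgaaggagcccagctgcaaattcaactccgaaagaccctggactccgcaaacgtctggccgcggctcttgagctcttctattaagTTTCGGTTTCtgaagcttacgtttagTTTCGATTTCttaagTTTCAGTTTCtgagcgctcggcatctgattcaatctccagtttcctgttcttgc
ISG15, chr1:1013247-1013546, plus strand: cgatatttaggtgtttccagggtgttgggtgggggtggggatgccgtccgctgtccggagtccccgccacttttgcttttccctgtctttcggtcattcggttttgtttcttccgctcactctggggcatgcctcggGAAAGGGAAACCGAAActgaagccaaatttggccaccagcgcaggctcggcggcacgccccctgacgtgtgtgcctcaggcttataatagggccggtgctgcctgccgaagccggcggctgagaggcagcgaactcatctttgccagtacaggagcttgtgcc
The IFITM1 and IFITM3 windows hold 2 matches each, which begin 40 and 6 bases before the start in IFITM1 and 52 and 35 bases before it in IFITM3. EIF2AK2 has 1 match, 6 bases before the start, IFIT5 has 3, at 45, 19 and 4 bases, and the 2 of ISG15, at 113 and 107 bases, overlap. Of the 43 members, 31 had a promoter in the table, and 12 of these (38.7%) held the core on either strand. Among all 27305 genes with a promoter there, 4.38% held it. The windows of IRF8 held none, and IFITM2, which also differed between siRNAs, was not among the members with a promoter. A match describes the letters only.

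The values are log2 signals of probe sets, as deposited. A signal depends on the probe as well as on the transcript, so signals are compared between arrays for the same gene and not between genes. Values were tested with limma over all 14884 genes, all 15 arrays sharing an estimate of the spread, and a gene was called when its Benjamini-Hochberg adjusted p was under 0.05. Medians of the arrays ranged over 4.01 to 4.08, and the correlation between arrays of a group lay between 0.983 and 0.991. Relative to non-silencing, DCP2 fell by 1.80 (limma adjusted p = 3.1e-06) with its own siRNA and GAPDH fell by 1.23 (limma adjusted p = 2.7e-05) with its own, on the log2 scale. The depletion of LOC550643 and of DCPS is not analysed here, since neither is named in the platform table. Deviations from the group means had a leading axis with 24.7% of the within-group variance, on which the single arrays farthest out, relative to their group, were replicate 1 of non-silencing (14.6), replicate 1 of DcpS siRNA (14) and replicate 3 of GAPDH siRNA (-12.1). All 4 measured markers of HEK293-type cells, PAX2, EYA1, LHX1 and VIM, had signals above the median of all probe sets, as had 71.3% of all genes. Of 4 measured leukocyte markers, CD14 and LYZ lay below it and CD68 and CSF1R above it. The sum over these leukocyte markers was 17.2 to 17.6 in LOC550643, 17.6 to 18.1 in Dcp2, 17.3 to 17.4 in DcpS and 18.4 to 18.6 in GAPDH siRNA arrays, against 17.1 to 17.4 in non-silencing arrays, with CD68 called higher by 0.47 with Dcp2 and by 1.10 with GAPDH siRNA, and the part of these markers in the results below was not tested.

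Few of the 43 genes were called against non-silencing or in the F test, at shares near those of all genes. Against the non-silencing siRNA, 0 members were called with LOC550643, Dcp2 or GAPDH siRNA, and 2 were called with DcpS siRNA, IFITM1 and IFITM2, both lower. Over all genes the share called was 1.57% for LOC550643, 1.98% for Dcp2, 3.61% for DcpS and 2.0% for GAPDH siRNA, and 1.85% were called lower with DcpS siRNA, beside 4.65% of the members, a difference of 1 or 2 genes in 43. At an unadjusted p under 0.05 the counts were 4, 2, 4 and 1 of 43 in the same order, where all genes gave 12.5%, 16.3%, 16.1% and 13.6%. Groups did not overlap for 6, 4, 5 and 3 of 43 members, beside 17.0%, 22.8%, 18.5% and 17.3% of all genes. The moderated F test over the 5 groups called 5 members, IFITM2, IRF8, IFITM1, IFIT5 and EIF2AK2, which is 11.6% of 43 beside 12.2% of all genes. The other 38 members were called neither there nor in any of the 8 contrasts tested.

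The medians of the 43 genes lay near 0. Set against non-silencing, LOC550643 siRNA gave a median log2 change of -0.01, Dcp2 siRNA -0.04, DcpS siRNA -0.03 and GAPDH siRNA 0.02, and over all genes the medians lay between -0.01 and 0.00. The numbers of positive changes were 21, 16, 17 and 24 of 43, and 48.1%, 50.3%, 50.5% and 50.01% of all genes had positive ones. These 4 comparisons share the non-silencing arrays. The precision was enough to bound most changes of signal: the 95% interval lay within 1 log2 unit of no change, in either direction, for all 43 members with LOC550643, Dcp2 or GAPDH siRNA and for 41 with DcpS siRNA, where IFITM2 and IFITM3 were the exceptions. Of the 43, 27 had a mean signal above the median of all probe sets. For the others the low signal limits what a bounded change can show.

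**Figure D1:**
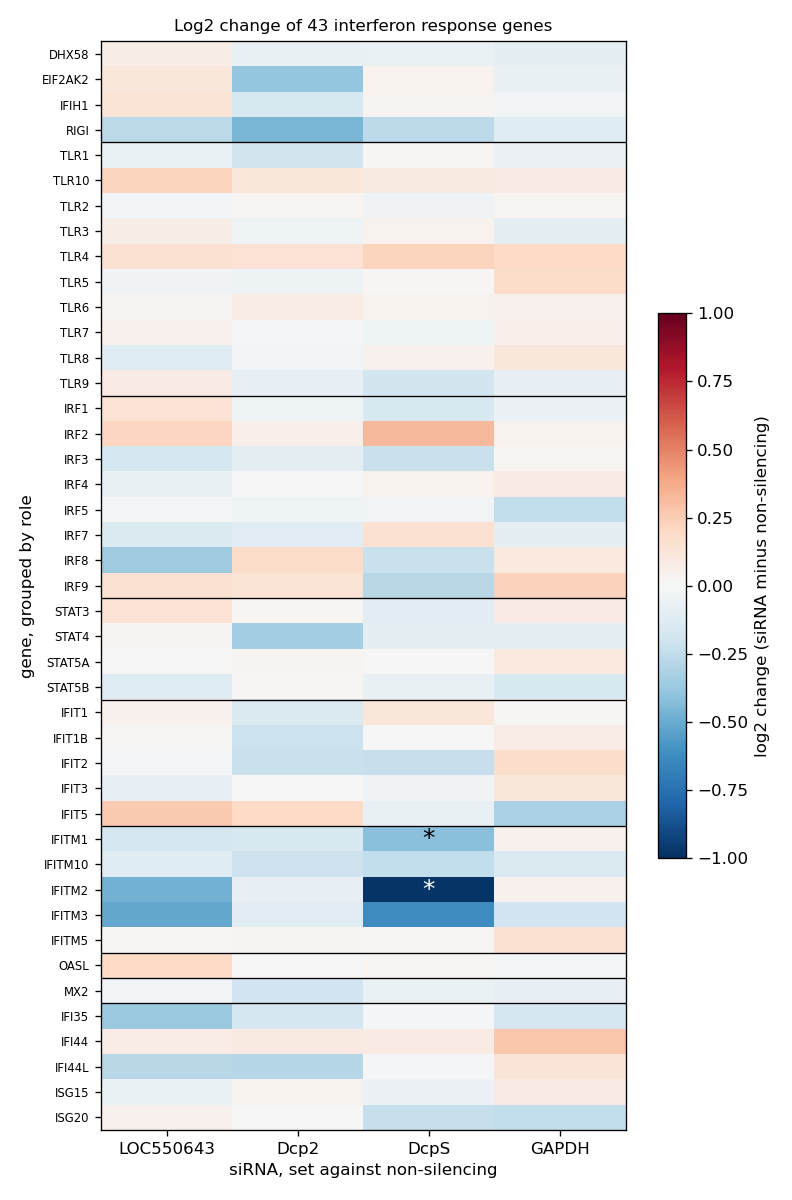
Log2 change of each of the 43 genes (rows, grouped by role) with LOC550643, Dcp2, DcpS and GAPDH siRNA (columns), each set against non-silencing siRNA, with 3 arrays a group. Colour gives the change from -1 to 1 and stars mark the 2 calls, IFITM1 and IFITM2 with DcpS siRNA.

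Among the sensors of RNA in the cytosol, EIF2AK2, the kinase PKR, differed among the groups (limma F test, adjusted p = 0.0384). Its values were 8.89, 8.66 and 8.49 in the LOC550643 arrays, 8.18, 8.21 and 8.14 in the Dcp2 arrays, 8.67, 8.52 and 8.62 in the DcpS arrays and 8.49, 8.65 and 8.34 in the GAPDH arrays, against 8.74, 8.48 and 8.47 in the non-silencing arrays. The 3 Dcp2 arrays lay below every other array, while the other 4 groups overlapped. EIF2AK2 was higher with LOC550643 than with Dcp2 siRNA by 0.51 log2 units (SE 0.11, limma adjusted p = 0.0227), where 2 of 43 members and 3.20% of all genes were called, and where 7 of 43 members and 22.4% of all genes did not overlap. Against non-silencing its change with Dcp2 siRNA was -0.39 (95% interval -0.63 to -0.15), with a limma adjusted p of 0.0858. Both the F test and the direct comparison lost their call without LOC550643 replicate 1 or 2 or any Dcp2 replicate (for the direct comparison, limma adjusted p up to 0.139), and the F test also without DcpS replicate 1 or 3 or GAPDH replicate 1. Both were also lost when all probe sets entered the adjustment, and the direct comparison with only the compared arrays. Within groups EIF2AK2 followed the leading axis of the arrays (r = 0.84 over 15 deviations), on which the Dcp2 group averaged -7.52, the LOC550643 group -1.11 and the non-silencing group 5.64; the part of that axis in the difference was not tested.

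RIGI, the sensor of RNA with a 5' triphosphate, was at 4.71, 4.97 and 5.07 with LOC550643, 4.66, 4.56 and 4.96 with Dcp2, 5.06, 5.08 and 4.62 with DcpS and 4.68, 5.41 and 5.11 with GAPDH siRNA, against 5.21, 5.37 and 4.98 with non-silencing siRNA. The Dcp2 arrays lay below the non-silencing arrays, the nearest pair being 4.96 and 4.98, and the other groups overlapped them. Its changes were -0.27, -0.46, -0.26 and -0.12 in that order, and with Dcp2 siRNA the limma adjusted p was 0.202 and the 95% interval -0.84 to -0.08. IFIH1, which senses long dsRNA, averaged 3.96 ± 0.10 in LOC550643, 3.66 ± 0.22 in Dcp2, 3.85 ± 0.11 in DcpS and 3.80 ± 0.13 in GAPDH siRNA arrays, against 3.83 ± 0.23 in non-silencing arrays (SD, n = 3 each). DHX58, the RIG-I-like protein LGP2, which modulates the other sensors, stayed within 4.41 and 4.91 over all 15 arrays. The changes of the 4 sensors were all negative with Dcp2 siRNA (median -0.28) and with GAPDH siRNA (median -0.08). With either, 0 of the 4 were called, where 1.98% and 2.0% of all genes were.

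Of 10 Toll-like receptors measured, 0 were called in any comparison. Over all genes, 0.873% to 6.40% were called in the 8 contrasts and 12.2% in the F test, so a family this small would hold few calls. Mean signals were above the median of all probe sets, 4.05, for TLR5 and TLR9 and below it for the other 8, while 71.3% of all genes were above it. TLR3, the receptor for dsRNA in endosomes, stayed between 3.0 and 3.49 over the 15 arrays, and its changes against non-silencing were 0.06 for LOC550643, -0.04 for Dcp2, 0.03 for DcpS and -0.09 for GAPDH siRNA, with 95% intervals that reached from -0.32 to 0.28 over the 4. TLR7 and TLR8, receptors for RNA in endosomes, lay between 2.63 and 2.88 and between 2.59 and 3.46. TLR5, which binds bacterial flagellin, averaged 4.66 ± 0.12 in LOC550643, 4.64 ± 0.09 in Dcp2, 4.70 ± 0.20 in DcpS and 4.88 ± 0.07 in GAPDH siRNA arrays, against 4.69 ± 0.06 in non-silencing arrays (SD, n = 3 each). The 3 GAPDH arrays lay above the 3 non-silencing arrays, but the change of 0.19 was not called (limma adjusted p = 0.469). TLR9, the receptor for unmethylated CpG DNA, lay between 4.60 and 5.38. TLR4, the receptor for lipopolysaccharide, gave positive changes against the shared non-silencing arrays, 0.15, 0.14, 0.23 and 0.20 in the same order of siRNAs, with limma adjusted p of 0.358 or more. TLR1, TLR2, TLR6 and TLR10, receptors of the cell surface, had changes between -0.18 and 0.22 against non-silencing.

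Of 8 measured interferon regulatory factors, IRF8 was the 1 called among the groups (limma F test, adjusted p = 0.00986). IRF8 is a factor of myeloid and lymphoid cells, induced there by interferon gamma. Its values were 6.10, 6.28 and 6.26 with LOC550643, 6.64, 6.81 and 6.81 with Dcp2, 6.44, 6.44 and 6.17 with DcpS and 6.76, 6.72 and 6.51 with GAPDH siRNA, against 6.58, 6.66 and 6.46 with non-silencing siRNA. The LOC550643 arrays lay below the Dcp2, GAPDH and non-silencing arrays without overlap and overlapped the DcpS arrays. In the direct comparisons IRF8 was lower with LOC550643 than with Dcp2 siRNA by 0.54 log2 units (change -0.54, SE 0.10, limma adjusted p = 0.00985) and than with GAPDH siRNA (change -0.45, SE 0.10, limma adjusted p = 0.0231). Against non-silencing the change was -0.35 (95% interval -0.58 to -0.13) and was not called (limma adjusted p = 0.118). Without LOC550643 replicate 1 the limma adjusted p of the comparison with Dcp2 siRNA was 0.0654, and the comparison with GAPDH siRNA was lost without LOC550643 replicate 1 or GAPDH replicate 1 or 2 (limma adjusted p up to 0.113). The comparison with GAPDH siRNA was also lost when all probe sets entered the adjustment and with only the compared arrays.

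The factors that carry the signal from the sensors were not called. IRF3, present before infection and activated by phosphorylation, averaged 7.29 ± 0.05 in LOC550643, 7.37 ± 0.13 in Dcp2, 7.25 ± 0.22 in DcpS and 7.49 ± 0.10 in GAPDH siRNA arrays, against 7.47 ± 0.16 in non-silencing arrays (SD, n = 3 each). IRF7, itself raised by interferon, was at 4.75, 4.42 and 4.42 in the DcpS arrays, against 4.33, 4.49 and 4.33 in the non-silencing arrays, a change of 0.15 (limma adjusted p = 0.600). IRF9, a DNA-binding factor of the response to type I interferon, was at 5.55, 6.04 and 5.83 with DcpS siRNA, against 5.75, 6.19 and 6.31 with non-silencing siRNA, and these overlapped (change -0.28, limma adjusted p = 0.394). IRF9 ran opposite to the leading axis of the arrays within groups (r = -0.89), and the lowest non-silencing array was replicate 1. IRF1, an early interferon-induced factor, lay between 4.64 and 5.27 over all arrays. IRF2, which counteracts IRF1, was at 7.79, 8.0 and 7.58 with DcpS siRNA and 7.27, 7.56 and 7.56 with non-silencing siRNA; these did not overlap, and the change of 0.32 was not called (limma adjusted p = 0.183). IRF4 and IRF5, best known from immune cells, had changes between -0.25 and 0.08.

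Among 4 measured STAT factors, which carry cytokine signals from receptors to the nucleus, 0 were called. Over all genes, 0.873% to 6.40% were called in the contrasts and 12.2% in the F test. STAT3, the factor of interleukin 6 signalling, averaged 8.56 ± 0.16 in LOC550643, 8.43 ± 0.12 in Dcp2, 8.31 ± 0.18 in DcpS and 8.50 ± 0.14 in GAPDH siRNA arrays, against 8.42 ± 0.02 in non-silencing arrays (SD, n = 3 each). STAT4, the factor of interleukin 12 signalling, varied within groups, with 5.27 in non-silencing replicate 1 and 4.70 and 4.53 in the other arrays of that group. STAT5A, a factor of growth hormone and interleukin 2 signalling, was the noisiest member, with 4.80, 3.80 and 3.80 in the DcpS arrays, and its 95% intervals were the widest, reaching 0.47 to either side. STAT5B, its close relative, stayed within 6.03 and 6.56.

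The IFITM genes held the largest changes of the 43 against non-silencing with DcpS and LOC550643 siRNA, while with Dcp2 siRNA the largest was that of RIGI (-0.46) and with GAPDH siRNA that of IFIT5 (-0.32). IFITM1, IFITM2 and IFITM3 encode small membrane proteins that block fusion of enveloped viruses, and they lie side by side on chromosome 11 with IFITM5 next to IFITM2. IFITM2 was at 9.16, 9.54 and 9.52 with LOC550643, 9.98, 9.62 and 9.79 with Dcp2, 9.08, 8.52 and 9.10 with DcpS and 10.08, 9.68 and 10.00 with GAPDH siRNA, against 10.04, 9.73 and 9.88 with non-silencing siRNA. The DcpS arrays lay below all 12 others, the LOC550643 arrays below the remaining 9, and the Dcp2 and GAPDH arrays overlapped the non-silencing arrays. With DcpS siRNA IFITM2 fell by 0.98 log2 units (SE 0.16, limma adjusted p = 0.00317), to 0.506 of the non-silencing level, and this call held in 15 of 15 alternative settings (change -1.08 to -0.79). With LOC550643 siRNA its change was -0.48 (95% interval -0.82 to -0.13) and was not called (limma adjusted p = 0.196). The direct difference, LOC550643 minus DcpS siRNA, was 0.51 (95% interval 0.16 to 0.85, limma adjusted p = 0.0790) and missed the threshold, as did every member in that comparison, where 6.40% of all genes were called and where 6 of 43 members and 21.9% of all genes did not overlap.

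IFITM1 was at 9.34, 9.37 and 9.14 with LOC550643, 9.33, 9.26 and 9.34 with Dcp2, 9.13, 9.01 and 8.98 with DcpS and 9.53, 9.49 and 9.48 with GAPDH siRNA, against 9.55, 9.41 and 9.41 with non-silencing siRNA. As for IFITM2, the DcpS arrays were the lowest 3 of the 15, though their distance from LOC550643 replicate 3 was small. With DcpS siRNA IFITM1 fell by 0.42 log2 units (SE 0.09, limma adjusted p = 0.0120). That call was lost without non-silencing replicate 1 and in a fit restricted to the 6 arrays concerned (limma adjusted p up to 0.0958), while the F test called IFITM1 in 23 of 23 alternative settings. IFITM3 was at 6.10, 5.88 and 5.72 with LOC550643, 6.15, 6.15 and 6.58 with Dcp2, 6.09, 6.0 and 5.26 with DcpS and 6.28, 6.21 and 6.16 with GAPDH siRNA, against 6.78, 6.28 and 6.16 with non-silencing siRNA. The DcpS and LOC550643 arrays lay below the non-silencing arrays, but DcpS replicate 3 and non-silencing replicate 1 stood away from the others of their groups. Its changes were -0.51 with LOC550643 (limma adjusted p = 0.280) and -0.63 with DcpS siRNA (95% interval -1.05 to -0.20, limma adjusted p = 0.105), and neither was called.

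The remaining IFITM members are not known as interferon effectors. IFITM5, a gene of bone-forming cells, stayed within 3.56 and 3.92, and IFITM10 averaged 6.42 ± 0.19 in LOC550643, 6.33 ± 0.21 in Dcp2, 6.29 ± 0.18 in DcpS and 6.39 ± 0.20 in GAPDH siRNA arrays, against 6.53 ± 0.15 in non-silencing arrays (SD, n = 3 each). In all, 2 of 5 IFITM members were called with DcpS siRNA, both lower, where 1.85% of all genes were called lower, and 0 with each other siRNA, where 1.57% to 2.0% of all genes were called. The coding sequences of IFITM1, IFITM2 and IFITM3 are closely alike, so probes of each can bind transcripts of the others, and their signals are uncertain as separate measurements; how far they were shared was not tested. Within groups the leading axis of the arrays had r = 0.01 with IFITM2, 0.77 with IFITM1 and 0.68 with IFITM3. The DcpS group averaged 2.76 on that axis and the non-silencing group 5.64.

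**Figure D2:**
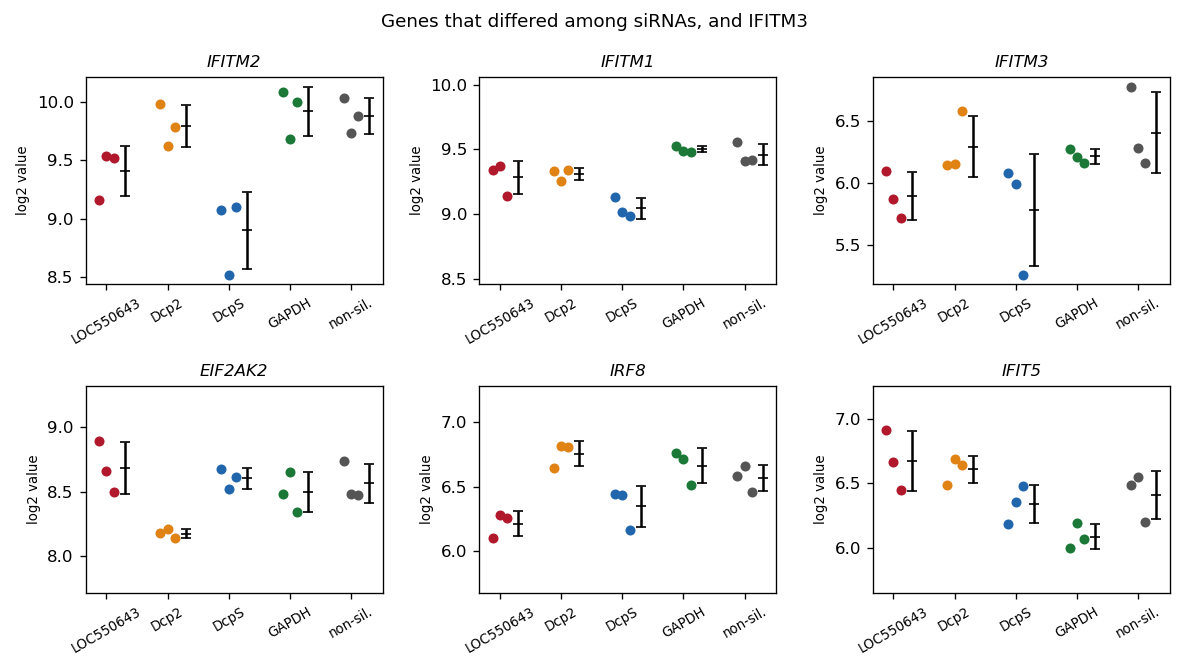
Log2 value (vertical axis) of IFITM2, IFITM1, IFITM3, EIF2AK2, IRF8 and IFIT5 in each array (points), by siRNA group, with the group mean and SD (bars, n = 3). IFITM2 and IFITM1 are lowest in the DcpS arrays, EIF2AK2 in the Dcp2 arrays and IRF8, on average, in the LOC550643 arrays.

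The IFIT genes, RNA-binding proteins that sequester foreign mRNA and are among the strongest targets of interferon, lie in a row on chromosome 10 in the order IFIT2, IFIT3, IFIT1B, IFIT1, IFIT5. IFIT1, which binds RNA lacking a host cap methylation, was at 4.41, 4.56 and 4.42 with LOC550643, 4.26, 4.31 and 4.28 with Dcp2, 4.51, 4.68 and 4.42 with DcpS and 4.36, 4.54 and 4.39 with GAPDH siRNA, against 4.37, 4.44 and 4.46 with non-silencing siRNA. The Dcp2 arrays were the lowest 3, by a small margin, and the other groups overlapped. Its changes were 0.04, -0.14, 0.12 and 0.01 in the order LOC550643, Dcp2, DcpS, GAPDH, and the 4 intervals together reached from -0.33 to 0.30. IFIT2 was at 3.34, 3.40 and 3.34 with GAPDH siRNA, against 3.54, 2.86 and 3.14 with non-silencing siRNA, and IFIT3 stayed within 2.40 and 2.87 over all arrays. Both had mean signals below the median of all probe sets, as had IFIT1B, a relative of IFIT1 that is not known as an interferon effector.

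IFIT5 was the single IFIT gene to differ among the groups (limma F test, adjusted p = 0.0251). It was at 6.91, 6.67 and 6.45 with LOC550643, 6.49, 6.69 and 6.65 with Dcp2, 6.19, 6.36 and 6.48 with DcpS and 6.0, 6.19 and 6.07 with GAPDH siRNA, against 6.49, 6.55 and 6.20 with non-silencing siRNA. The GAPDH arrays were below every array of the LOC550643, Dcp2 and non-silencing groups, and the LOC550643 and non-silencing arrays overlapped. IFIT5 was higher with LOC550643 than with GAPDH siRNA by 0.59 log2 units (SE 0.13, limma adjusted p = 0.0136), where 2 of 43 members and 4.08% of all genes were called, and where 11 of 43 members and 21.6% of all genes did not overlap. Against non-silencing its changes were 0.26 with LOC550643 (limma adjusted p = 0.407) and -0.32 with GAPDH siRNA (limma adjusted p = 0.249). The comparison with GAPDH siRNA lost its call without LOC550643 replicate 1 or GAPDH replicate 1 and with only the compared arrays (limma adjusted p up to 0.0809). The F test lost it without LOC550643 replicate 2, Dcp2 replicate 2 or GAPDH replicate 1 or 3, and when all probe sets entered the adjustment (limma adjusted p up to 0.0849).

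Among the other interferon-stimulated genes, 0 were called with each siRNA against non-silencing, where 1.57% to 3.61% of all genes were. ISG15, a ubiquitin-like protein that is attached to viral and host proteins, was at 6.22, 6.42 and 6.37 with LOC550643, 6.41, 6.44 and 6.46 with Dcp2, 6.40, 6.35 and 6.30 with DcpS and 6.62, 6.50 and 6.34 with GAPDH siRNA, against 6.26, 6.40 and 6.55 with non-silencing siRNA. All groups overlapped the non-silencing arrays, and the 95% interval of its change, over the 4 siRNAs, lay between -0.27 and 0.29. OASL, an OAS-like protein that strengthens RIG-I signalling, averaged 5.32 ± 0.06 in LOC550643, 5.11 ± 0.18 in Dcp2, 5.14 ± 0.18 in DcpS and 5.10 ± 0.07 in GAPDH siRNA arrays, against 5.12 ± 0.20 in non-silencing arrays (SD, n = 3 each). MX2, a dynamin-like GTPase that restricts HIV, stayed within 3.57 and 4.06. The signal of MX2 was below the median of all probe sets, as were those of IFI44 and IFI44L.

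IFI44L was at 3.83, 3.60 and 3.70 with LOC550643, 3.74, 3.49 and 3.91 with Dcp2, 4.39, 3.61 and 3.94 with DcpS and 4.23, 4.12 and 4.03 with GAPDH siRNA, against 4.19, 3.88 and 3.91 with non-silencing siRNA. The LOC550643 arrays lay below the non-silencing arrays without overlap, but the change of -0.28 was not called (limma adjusted p = 0.515). IFI44, a related protein of the same family, had 3.16 in GAPDH replicate 3 and 2.35 to 2.76 in the other 14 arrays. IFI35, which binds the related protein NMI, had a change of -0.37 with LOC550643 siRNA (5.33 ± 0.20, against 5.70 ± 0.23 with non-silencing siRNA, SD, n = 3 each) with a limma adjusted p of 0.375. ISG20, an RNA exonuclease, was at 4.19, 4.06 and 4.02 with GAPDH siRNA, just below 4.33, 4.21 and 4.46 with non-silencing siRNA, a change of -0.24 (limma adjusted p = 0.448).

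**Figure D3:**
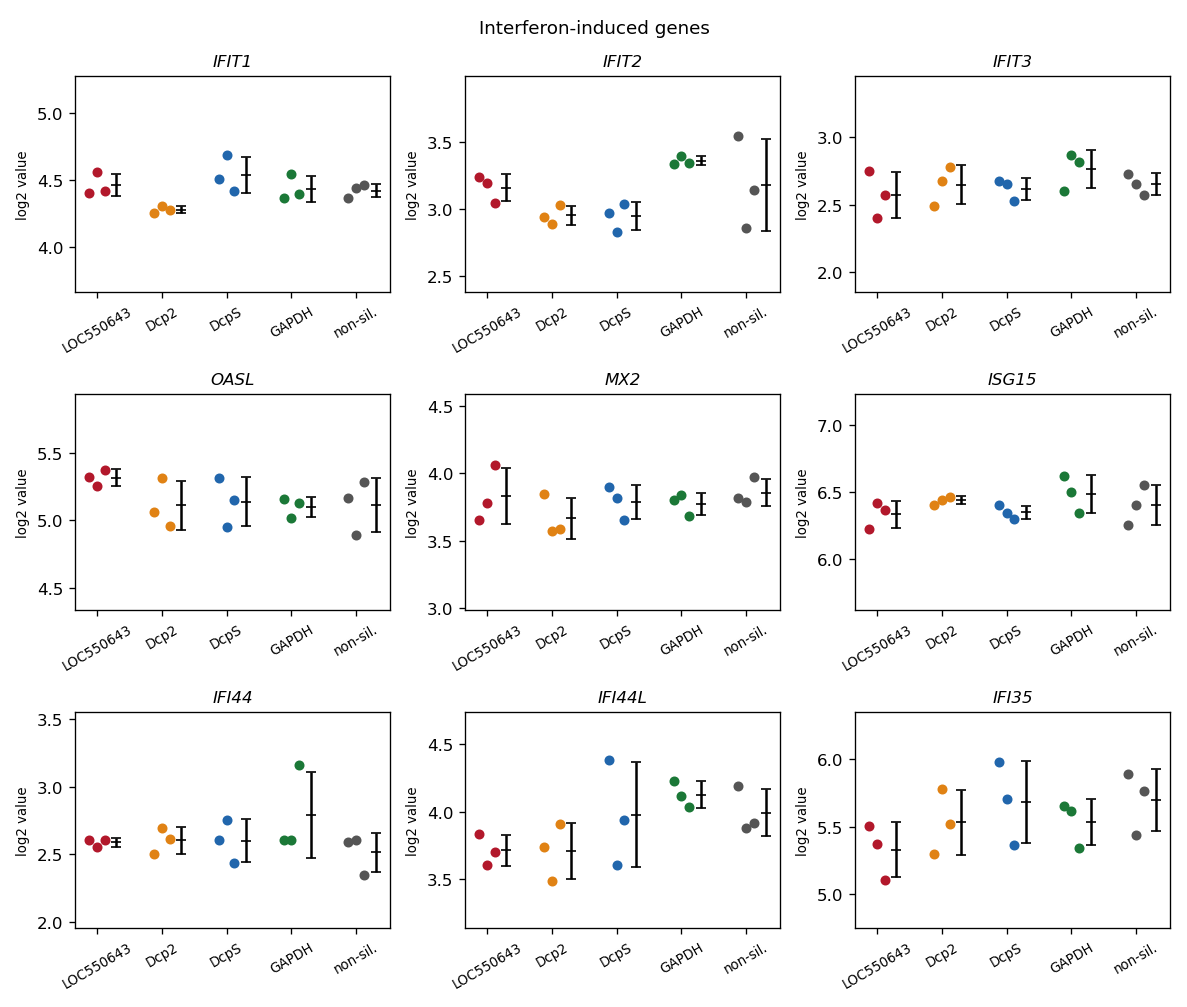
Log2 value (vertical axis) of 9 interferon-induced genes in each array (points), by siRNA group, with the group mean and SD (bars, n = 3). Panels cover at least 1.6 log2 units, and every group overlaps or lies close to the non-silencing arrays: ISG15, for example, stays between 6.22 and 6.62.

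All 4 targeting siRNAs were also set together against the non-silencing siRNA, to see what they share. Here 0 of 43 members were called, with 3 at an unadjusted p under 0.05, where 0.873% and 13.0% of all genes were. The 3 were IFITM1, IFITM2 and IFITM3, at -0.17, -0.38 and -0.36, with limma adjusted p of 0.278, 0.202 and 0.341. The 12 targeting arrays overlapped the 3 non-silencing arrays for each of the 43 genes, while they did not overlap for 1.19% of all genes. No member's 95% interval reached beyond -0.70 or 0.40. For the classical targets it was narrower: -0.14 to 0.16 for IFIT1, -0.18 to 0.18 for IFIT3, -0.17 to 0.16 for ISG15 and -0.15 to 0.26 for OASL. The mean signal of IFIT3, 2.65, was below the lower quartile of all values, 2.91, which limits what its interval can show.

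**Figure D4:**
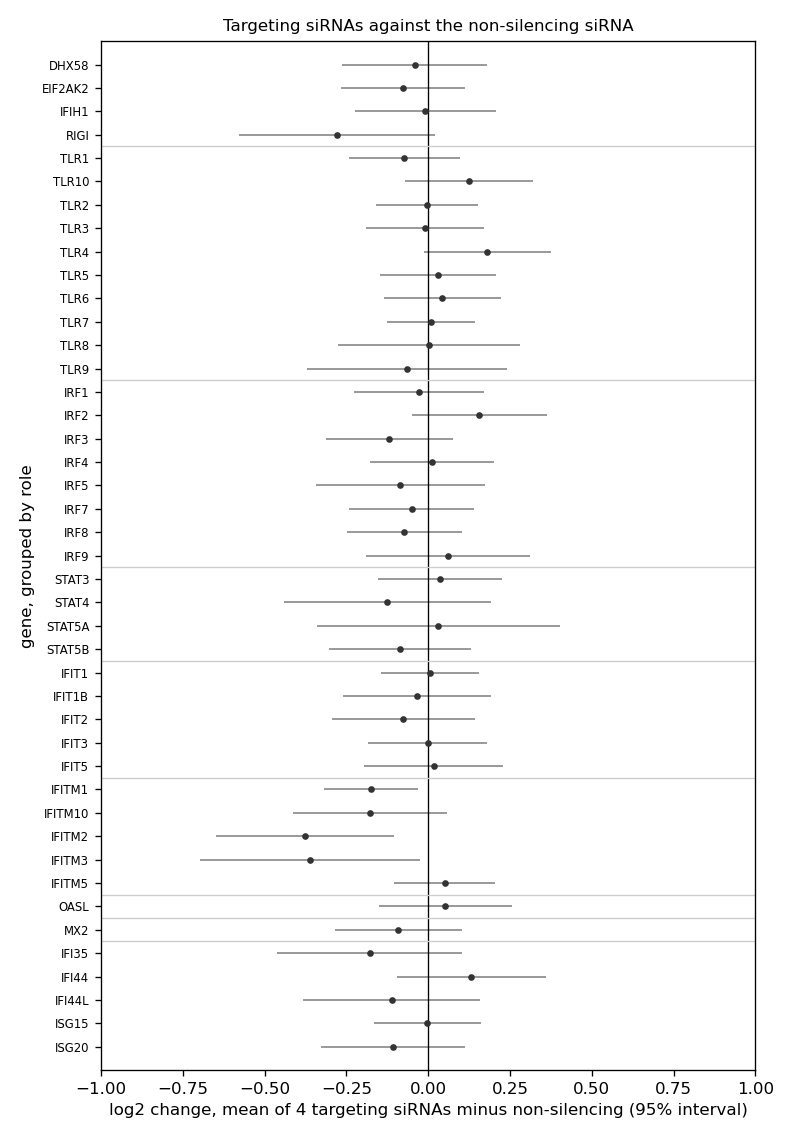
Log2 change of the 43 genes between the mean of the 4 targeting siRNA groups and the non-silencing group (points) with 95% intervals from limma (bars), grouped by role. Every interval lies between -0.70 and 0.40, and those of IFITM1, IFITM2 and IFITM3 lie below 0 but were not called after adjustment.

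Lists of pathway genes that the symbol rule does not reach covered receptors and kinases (5 measured of 9), signalling from the sensors (11 of 17), negative regulators (4 of 9), NF-kB targets (12 of 17) and other interferon-induced genes (38 of 69), and their median changes against non-silencing lay between -0.19 and 0.14. With LOC550643 siRNA IRAK1 and TAPBP were called, with Dcp2 siRNA TRIM25, with DcpS siRNA TRIM25 and JAK2, and with GAPDH siRNA 0 genes; all calls were lower than non-silencing. These counts of 2, 1, 2 and 0 stand beside shares over all genes of 1.57%, 1.98%, 3.61% and 2.0%. The interferon ligand genes listed had no named probe set and are not analysed here. Of the 12 NF-kB targets, among them the chemokine genes CXCL8, CXCL10 and CCL5 and TNF, 0 were called with each siRNA, with changes between -0.37 and 0.24. CXCL8, CXCL10 and TNF averaged 2.74, 2.58 and 3.84, below the median of all probe sets, 4.05, and CCL5 averaged 4.87. Such low signals limit what a lack of change can show, as does the actinomycin D given before harvest.

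JAK2, a kinase of the interferon gamma and growth hormone receptors, was at 4.84, 4.77 and 4.73 with LOC550643, 4.42, 4.73 and 4.72 with Dcp2, 4.18, 4.03 and 4.40 with DcpS and 4.89, 4.72 and 4.72 with GAPDH siRNA, against 4.84, 5.04 and 5.02 with non-silencing siRNA. The DcpS arrays were the lowest 3. With DcpS siRNA JAK2 fell by 0.77 log2 units (SE 0.11, limma adjusted p = 0.0015), in 15 of 15 alternative settings. TRIM25, the ubiquitin ligase that activates RIG-I, was at 6.85, 6.67 and 6.84 with Dcp2 siRNA and 7.02, 6.72 and 6.76 with DcpS siRNA, against 7.70, 7.40 and 7.17 with non-silencing siRNA. It fell by 0.63 with Dcp2 (limma adjusted p = 0.0336) and by 0.59 with DcpS siRNA (limma adjusted p = 0.0308), and both calls were lost without non-silencing replicate 1 or 2, among other arrays (limma adjusted p up to 0.164). Both TRIM25 calls were also lost when all probe sets entered the adjustment and with only the compared arrays.

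IRAK1, a kinase downstream of Toll-like receptors, was at 6.82, 6.72 and 6.65 with LOC550643 siRNA, against 7.22, 7.23 and 7.09 with non-silencing siRNA, and fell by 0.45 (SE 0.09, limma adjusted p = 0.0242). That call was lost without non-silencing replicate 1 or 2 or LOC550643 replicate 2 or 3 (limma adjusted p up to 0.109). The IRAK1 call was also lost when all probe sets entered the adjustment and with only the compared arrays. TAPBP, the tapasin chaperone that loads peptides onto MHC class I, was at 7.12, 7.13 and 6.75 with LOC550643 siRNA, against 7.58, 7.55 and 7.58 with non-silencing siRNA. It fell by 0.57 (SE 0.11, limma adjusted p = 0.0108) and lost its call without non-silencing replicate 1 and with only the compared arrays (limma adjusted p up to 0.0914). For both genes the 2 groups did not overlap.

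**Figure D5:**
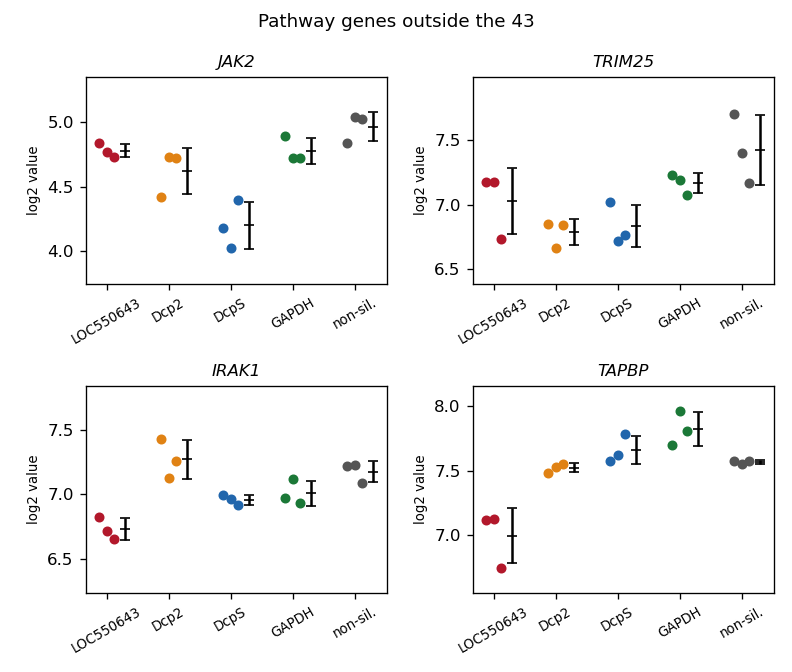
Log2 value (vertical axis) of JAK2, TRIM25, IRAK1 and TAPBP in each array (points), by siRNA group, with the group mean and SD (bars, n = 3). JAK2 is lowest in the DcpS arrays, TRIM25 is highest in the non-silencing arrays on average, and IRAK1 and TAPBP are lowest in the LOC550643 arrays.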

How the data were processed

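Total RNA was measured on 15 Affymetrix whole-transcript arrays. The deposited values summarise probe sets in log2 units (a base read from their range, which no source states), made by the authors with RMA and the oligo package, per the submitters' processing notes; versions, probe set definition and genome build are not given in the sources used here. RMA's quantile normalization gives arrays like distributions, so a shift of all transcripts cannot be seen. Groups come from the sample titles.

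Of 53617 probe sets, 16098 had 1 gene symbol in the platform table, 0 had several and 37519 were unnamed here. For genes with several, the probe set with the highest mean was used, which left 14884 genes. All 43 members matched RefSeq by gene identifier. Limma 3.58.1 in R 4.3.3 was fitted with 1 mean per group (10 residual degrees of freedom) and 8 contrasts, two-sided, with Benjamini-Hochberg adjustment over all genes, and was tested on simulated data. The number of arrays limits the precision, and no detection calls were used.

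Members and lists were chosen with earlier results of these data known. Genes named are the members, above all those called, the classical interferon-induced genes and sensors, and called genes of the lists. Alternatives were a replicate block, renewed quantile normalization, centring on array medians, leaving out dim genes, other choices of probe set, an intensity trend, adjustment over all probe sets, fits of only the compared arrays, and leaving out each array.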

Additional observations from a re-analysis of the deposited data

How the results depend on the processing

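Counts of called members against non-silencing siRNA were 0 to 2 under every alternative, and those of the direct comparisons and the F test moved with some. Quantile normalization, median centring, the filter on dim genes, the mean or most variable probe set and the intensity trend kept every count of members within 1.5 times. With all probe sets in the adjustment the counts were 1 for LOC550643 against Dcp2 siRNA, 1 for LOC550643 against GAPDH siRNA, 3 in the F test and 2 calls for the pathway lists. With only the arrays compared they were 1 for DcpS against non-silencing siRNA, 1 for LOC550643 against Dcp2 siRNA, 0 for LOC550643 against GAPDH siRNA (limma) and 1 for the pathway lists, where fewer arrays were fitted. Leaving out each array gave 1 to 2 members for DcpS against non-silencing siRNA, 0 to 2 for LOC550643 against Dcp2 and 0 to 2 against GAPDH siRNA, 3 to 6 in the F test and 1 to 6 calls for the pathway lists, beside 5 with all arrays. The pathway count was 1 without non-silencing replicate 1 and 2 without non-silencing replicate 2. It gave 0 members, as with all arrays, for LOC550643, Dcp2 and GAPDH siRNA against non-silencing (limma), for LOC550643 against DcpS siRNA and for the mean of the targeting siRNAs. IFIT2 joined the F test calls without non-silencing replicate 1 or 2. Called changes reversed in 0 alternatives. Replicate numbers share no stated origin: the deviations of same-numbered arrays correlated between -0.20 and 0.39, and 6 of 15 arrays correlated best with their own number. The fit with the replicate block called 1 member, IFITM2, for LOC550643 against DcpS siRNA (limma adjusted p = 0.0485), where 0 were called without it. Signals below the median of all probe sets, as for most Toll-like receptors, IFIT2, IFIT3, MX2 and IFI44, limit what a lack of change can show.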
